A study of Rattus norvegicus with 10 samples.

Results

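The region described here is the Pparg locus of the rat on chromosome 4, taken as positions 147174001 to 147500000 of build rn6. This window of 326 kb holds the Pparg gene, at about 147274000 to 147399400, with about 100 kb on either side. Every peak of 10 ATAC-seq peak lists that overlaps the window was kept, whatever its strength. There were 369 peaks (distinct intervals within a list) of 2119819 in all lists. Where peaks of different libraries overlapped by at least 1 bp they were merged, which gave 110 regions of 802351 in the whole genome. ATAC-seq uses a transposase to cut accessible DNA in isolated nuclei, and a peak is an interval where the caller found more cuts than its local background. One group was white adipose tissue of the abdomen (5 libraries) and the other the gastrocnemius, a calf muscle (5 libraries). All are labelled as male Fischer 344 rats, obtained at 8 months of age, with no drug, diet or genetic change named. The series compares open chromatin between these tissues. Its design text speaks of single animals and of pulverized tissue pooled over 15 males, without saying which libraries were pooled, so p-values measure only how these libraries vary, which may be technical in part. Both tissues are mixtures of cell types, and fewer cells of a type and less open chromatin per cell cannot be told apart here.

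Pparg encodes a nuclear receptor that pairs with the retinoid X receptors and binds fatty acid derivatives and the thiazolidinedione drugs. It is the central switch of fat cell formation: it turns on genes for lipid uptake, storage and adipokines, and fat cells lose their identity without it. The gene is read from alternative promoters, one that gives a broadly expressed isoform and one further inside the gene whose isoform is enriched in fat cells. Skeletal muscle is known to express it at a low level.

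The peak lists carry no gene models, and no annotation of rn6 was used. The gene ends are those of the rule that set the window, exons, introns and untranslated parts were not assigned, and the labelled tissues were not checked against marker genes. Regions in the flanks may lie in or near other genes and are not assigned to Pparg.

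RefSeq's promoter table for GRCr8, another build, lists a pair of promoters for Pparg, both on the plus strand and each reaching from 250 bases before to 50 bases after a transcription start. They are shown because the gene start held a peak in every library of both tissues, and because the promoters differ in base composition. Capitals mark each CpG.
Pparg promoter 1: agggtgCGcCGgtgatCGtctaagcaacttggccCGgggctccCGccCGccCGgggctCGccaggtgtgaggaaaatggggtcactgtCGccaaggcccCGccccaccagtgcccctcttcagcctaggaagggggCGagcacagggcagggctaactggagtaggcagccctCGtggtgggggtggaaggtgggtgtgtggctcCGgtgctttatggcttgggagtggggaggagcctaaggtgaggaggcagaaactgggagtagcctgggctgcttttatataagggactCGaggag
Pparg promoter 2: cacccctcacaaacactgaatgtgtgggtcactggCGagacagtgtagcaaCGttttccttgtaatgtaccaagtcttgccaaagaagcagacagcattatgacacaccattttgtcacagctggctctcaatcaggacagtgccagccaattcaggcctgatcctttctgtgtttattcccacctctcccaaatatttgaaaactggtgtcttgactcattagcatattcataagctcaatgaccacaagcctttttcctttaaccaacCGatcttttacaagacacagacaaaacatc
Promoter 1 had 14 CpG and 64.7% G and C, and promoter 2 had 3 CpG and 43.7%. The median promoter of the 33469 in the table had 7 CpG, and 33.5% of them had at least as many as promoter 1. On both strands, the GC box GGGCGG matched promoter 1 at 3 places, of which 2 share 2 letters, and promoter 2 at none, while 33.1% of all promoters held it. The motif TATAAA matched promoter 1 once (14.2% of all promoters) and CCAAT matched promoter 2 once (37.5%), and neither match overlapped another. The TATAAA match was on the opposite strand, as TTTATA at bases 279 to 284. It lies after the transcription start, which 250 bases precede, so it is not a TATA box in the usual place. The sequences belong to a build other than that of the peaks, so neither was placed on rn6, and which of them the peaks at the gene start cover was not determined.

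Before the results, the lists themselves differ. An adipose list held 249508 ± 5722 peaks and a muscle list 174456 ± 9101 (SD, n = 5 per tissue). The adipose lists end at a −log10 p of 3.26 to 4.27 and the muscle lists at 2.00, so the tissues share no threshold. In rows, where an interval can repeat, the adipose lists held 298639 to 299093 and the muscle lists 227958 to 251869. Whether the adipose lists were cut at a number of rows was not tested, so their totals may not be natural list sizes. Strong peaks, those whose −log10 q reached 5, lie above both limits, and made up 20.3% to 38.1% of an adipose list and 52.3% to 69.2% of a muscle list. Depth is unknown, because the lists carry no read totals, and no counting interval is given. Adipose replicates 2, 3 and 4 had 0, 0 and 1 peaks on chromosome Y, where adipose replicates 1 and 5 had 31 and 45 and the muscle libraries 16 to 24, although all are labelled male. Chromosome X held 3.26%, 2.78% and 3.47% of the peaks of adipose replicates 2, 3 and 4. In adipose replicates 1 and 5 it held 1.07% and 1.45%, and in the muscle libraries 1.41% to 1.74%. The cause was not tested, and the male label of adipose replicates 2, 3 and 4 is in doubt. The main counts and fits are therefore also given for adipose replicates 1 and 5 alone, but not the covered bases shared between libraries.

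The whole Pparg window held more listed peaks in adipose, and the call depended on how the longer adipose lists were treated. The adipose libraries had 43, 41, 47, 34 and 40 peaks in the window, for replicates 1 to 5, and the muscle libraries 33, 26, 39, 32 and 34. The ranges overlapped: adipose replicate 4 lay below muscle replicate 3 and level with muscle replicate 5. The means were 41 ± 4.74 and 32.8 ± 4.66 (SD, n = 5 per tissue), or 1.25 times as many (exact permutation test, two-sided as all here, p = 0.0238, adjusted p = 0.0286 over 6 measures of the window). Peaks covered 16.9 ± 2.22 kb of the window in adipose and 13.3 ± 1.24 kb in muscle (exact permutation p = 0.0159, adjusted p = 0.0238). Per 100000 peaks of the library, the order turned, to 16.4 ± 1.89 in adipose and 18.8 ± 2.39 in muscle (exact permutation p = 0.119). The call held among the 50000 peaks of each library with the highest −log10 p, with 5.80 more peaks in adipose (exact permutation p = 0.0159, adjusted p = 0.0238). It held too with all lists ended at a −log10 p of 4.27, the highest floor of any list and called the common floor here, with 12.6 more (exact permutation p = 0.00794, adjusted p = 0.0119). Without any 1 of adipose replicates 1, 2, 3 or 5 or muscle replicates 1, 2 or 4, the adjusted p of the peak number was 0.0571, with differences of 6.50 to 8.45 peaks.

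The window was also compared with all windows of its length on the autosomes, by limma on log2 of peaks per 100000 peaks of the library plus 0.5. The Pparg window came out at -0.19 on that log2 scale, where values below 0 are higher in muscle (SE 0.12, adjusted p from limma 0.149). Without scaling to the list it turned to 0.32, higher in adipose (adjusted p from limma 0.0232), where the median window stood at 0.74. At an adjusted p under 0.05, 44.6% of 7936 windows had more peaks in adipose and 35.1% more in muscle, or 3540 and 2785 windows, and without scaling to the list 4550 and 1414. The median window stood at 0.23 towards adipose, and relative to it the Pparg window lay at -0.42, at percentile 39.9 of all windows. Strong peaks numbered 80787 ± 16656 in an adipose list and 99718 ± 12039 in a muscle list (SD, n = 5 per tissue). Scaling on strong peaks thus divides by totals that are larger on average in muscle, the reverse of the deposited lists. Among strong peaks alone the window turned to adipose, at 0.47 on the log2 scale (SE 0.12, adjusted p from limma 0.00361), 0.28 above the median of 0.19 and at percentile 59.6. In that fit 36.7% of 7553 windows had more strong peaks in adipose and 23.0% more in muscle, or 2770 and 1736 windows, and without scaling 1891 and 2274. Without scaling the value of the Pparg window on strong peaks was 0.16 (adjusted p from limma 0.517). With adipose replicates 1 and 5 alone and scaling it was 0.42 (adjusted p from limma 0.00757), and on all deposited peaks -0.17 (adjusted p from limma 0.262). The window was rich in peaks in both tissues, at percentile 83.7 of 8021 windows by its mean number of adipose peaks and 72.1 by its mean number of muscle peaks.

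**Figure D1:**
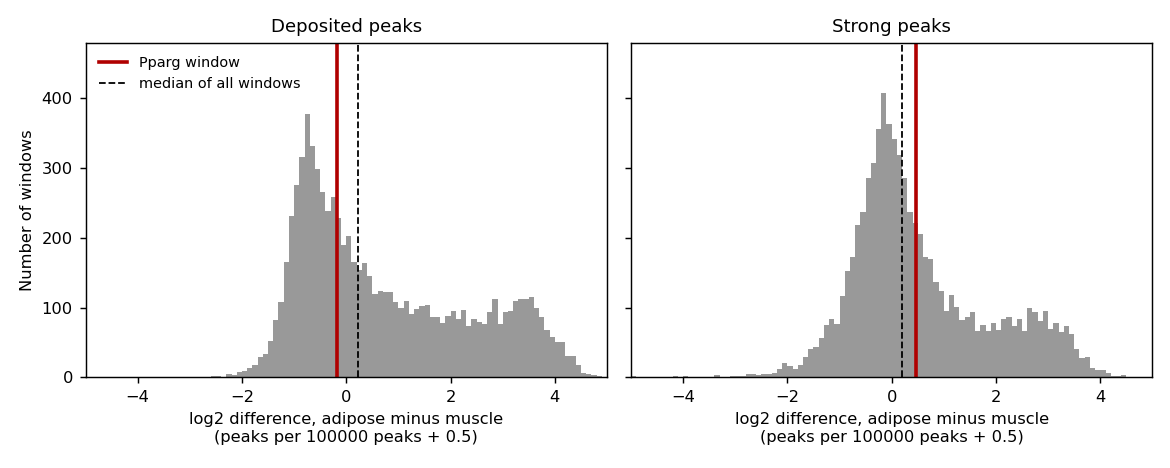
Number of autosomal windows of 326 kb by their log2 difference (adipose less muscle) in peaks per 100000 peaks plus 0.5, for all deposited peaks (left) and strong peaks (right). The red line is the Pparg window, at -0.19 and 0.47, and the dashed line the median window, at 0.23 and 0.19; a broad shoulder of windows lies far to the adipose side of the Pparg window.

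The number of listed peaks differed by position: it was higher in adipose within the gene and before it, and not after it. Within the gene body the adipose libraries had 20, 22, 22, 15 and 20 peaks, and the muscle libraries 14, 8, 14, 12 and 12. Every adipose library lay above every muscle library. The means were 19.8 ± 2.86 and 12 ± 2.45 (SD, n = 5 per tissue), or 1.65 times as many (exact permutation p = 0.00794, the lowest possible with 5 against 5, adjusted p = 0.0159). Peaks covered 8.02 ± 1.18 kb of the gene body in adipose and 5.12 ± 0.813 kb in muscle, again with no overlap between the tissues (exact permutation p = 0.00794, adjusted p = 0.0159). In the upstream flank the adipose libraries had 9, 7, 8, 8 and 8 peaks and the muscle libraries 6, 4, 6, 6 and 5, and the tissues did not overlap there either (exact permutation p = 0.00794, adjusted p = 0.0159). The whole lists were also without overlap, at 243928 to 259149 peaks in adipose and 164283 to 188890 in muscle. They covered 81.3 to 92.1 Mb in adipose and 68.6 to 75.7 Mb in muscle. The share of other genes or windows whose tissues separate in this way was not counted. In the downstream flank the adipose libraries had 14, 12, 17, 11 and 12 peaks and the muscle libraries 13, 14, 19, 14 and 17, and the ranges overlapped (exact permutation p = 0.214).

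These differences depend on how the longer adipose lists are treated. Per 100000 peaks of the library, the gene body held 7.94 ± 1.17 peaks in adipose and 6.85 ± 1.17 in muscle (exact permutation p = 0.190, adjusted p = 0.286). The upstream flank held 3.20 ± 0.240 in adipose and 3.09 ± 0.436 in muscle on that scale (exact permutation p = 0.635). In the downstream flank the scaled values were 5.29 ± 0.953 in adipose and 8.85 ± 1.52 in muscle (exact permutation p = 0.00794, adjusted p = 0.0476). In lists of equal length, the 50000 peaks of each library with the highest −log10 p, the gene body held 4 more peaks in adipose (exact permutation p = 0.00794) and the upstream flank 0.6 more (exact permutation p = 0.167). At the common floor the gene body held 9.20 more in adipose (exact permutation p = 0.00794). Strong peaks in the gene body numbered 6, 9, 13, 7 and 12 in adipose and 7, 4, 7, 5 and 9 in muscle, and the ranges overlapped (9.40 ± 3.05 against 6.40 ± 1.95, exact permutation p = 0.143). On strong peaks none of the 6 measures passed an adjusted p of 0.05, and none had an unadjusted exact permutation p under 0.05 (lowest 0.143). Strong peaks of adipose replicates 1 and 5 alone turned the difference for the window to -1.50 (exact permutation p = 0.667), against 2.40 with all libraries. Adipose replicate 1 had 12 strong peaks in the window and 52560 in its list, the fewest of any library. With all peaks of adipose replicates 1 and 5 alone the gene body held 8 more peaks in adipose than in muscle (exact permutation p = 0.0952, the smallest that 2 against 5 libraries allow). This was close to the 7.80 of all libraries. In the downstream flank the difference, adipose less muscle, was -2.40 with all peaks of these replicates. On their strong peaks it was -4.10 (exact permutation p = 0.0952, adjusted p = 0.571).

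**Figure D2:**
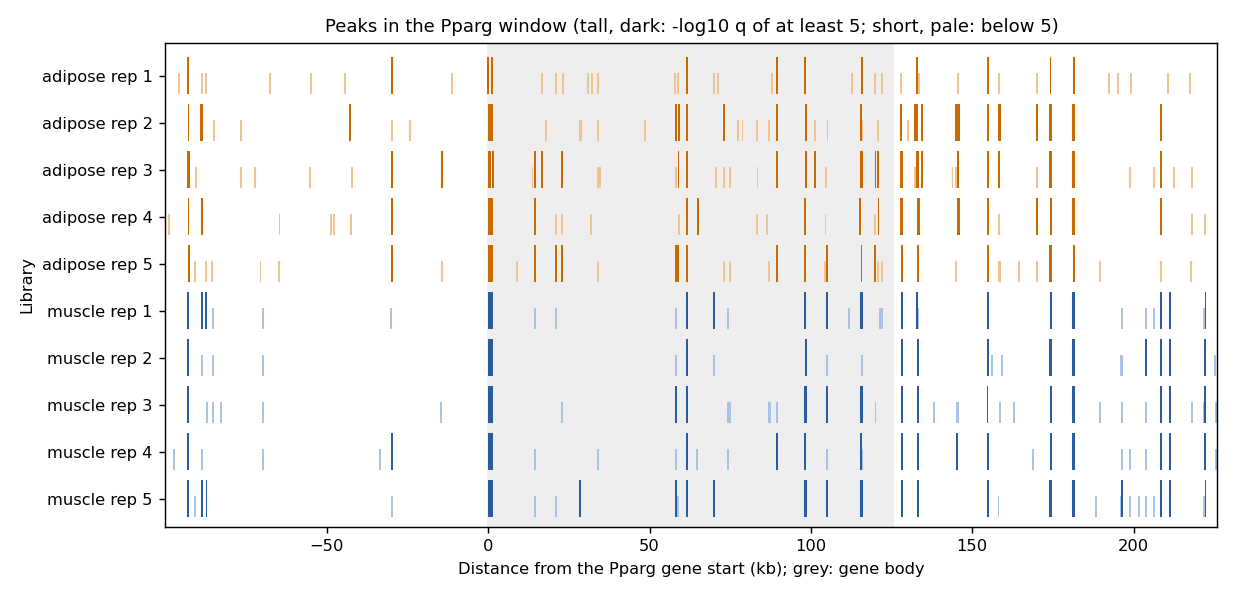
Position of every peak in the Pparg window, in kb from the gene start, with 1 row per library; tall dark bars are strong peaks (−log10 q of at least 5), short pale bars are weaker ones, the grey band is the gene body, and bars are drawn at least 0.6 kb wide. The columns of strong bars shared by all rows are the regions open in both tissues, and rows of adipose have more pale bars within the gene.

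**Figure D3:**
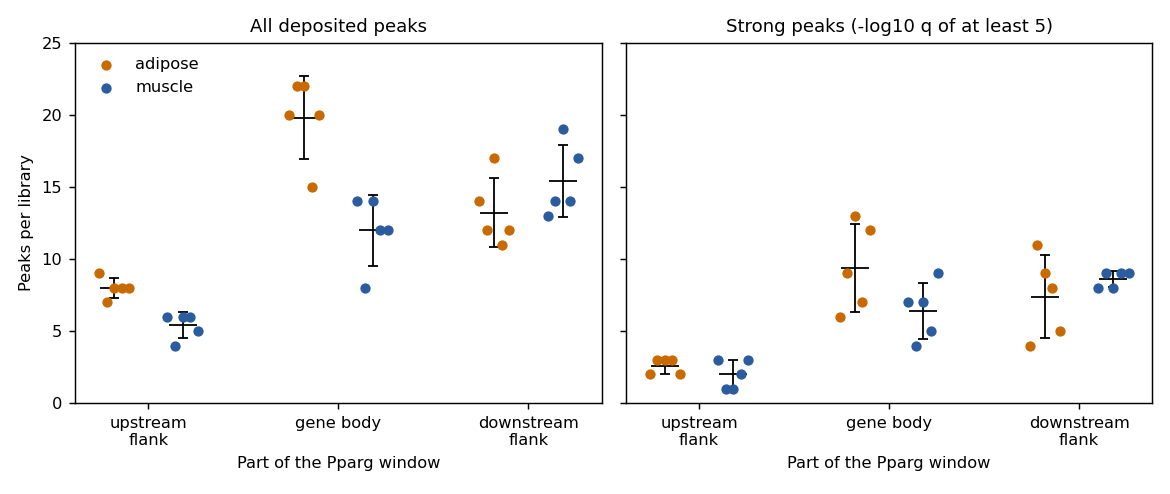
Peaks per library in the upstream flank, the gene body and the downstream flank, for all deposited peaks (left) and strong peaks (right). Points are libraries, horizontal marks and bars are the mean and SD of 5; in the gene body the deposited adipose values of 15 to 22 lie above the muscle values of 8 to 14, and the strong values overlap.

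Fat and muscle had 10 regions around Pparg in common that were called in every library. They were 66.7% of the 15 regions called in all 5 adipose libraries, against 69.5% over the genome, and 58.8% of the 17 called in all 5 muscle libraries, against 45.7%. Of the 110 regions, 58 were called in at least 2 libraries and could be tested, 26 in the gene body, 12 in the upstream flank and 20 in the downstream flank. Regions called in all 10 libraries numbered 10 (17.2% of the 58), against 12.3% of 336574 regions tested over the genome. Regions called in all 5 adipose libraries and no muscle library numbered 1 (1.72%, genome 1.74%), and regions called in all 5 muscle and no adipose library 3 (5.17%, genome 5.70%). Both shares are near those of the genome. By two-sided Fisher's exact test with Benjamini-Hochberg adjustment over the genome, 0 regions of the window passed an adjusted p under 0.05, as everywhere in the deposited lists (genome 0%). No region could pass there, because the smallest Fisher's exact p of 5 against 5 libraries, 0.00794, adjusts to 0.107. At an unadjusted Fisher's exact p under 0.05 there were 3 towards adipose and 5 towards muscle, or 5.17% and 8.62%, against 6.12% and 10.3% over the genome. No region within the gene body was exclusive to either tissue in the deposited lists. At the common floor the window had 3 adipose-exclusive regions and 1 muscle-exclusive region of 48 tested (6.25% and 2.08%, against 2.09% and 7.20% over the genome), and 1 of the 3, at 147332722 to 147333264, lay in the gene body. Of these none passed the adjustment, and none could (Fisher's exact p = 0.00794, the smallest possible, adjusted p = 0.0854). With adipose replicates 1 and 5 alone the deposited lists gave 11 shared, 1 adipose-exclusive and 4 muscle-exclusive regions. Calls in all or in none of fewer libraries are easier to meet anywhere, and no genome share is given for this setting.

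The same comparison can be made in bases. Peaks of at least 1 adipose library covered 36.8 kb of the window and peaks of at least 1 muscle library 24.6 kb. Bases covered in all 5 adipose libraries came to 5.37 kb and in all 5 muscle libraries to 7.16 kb. Of these, 4.07 kb were covered in all 10 libraries, which is 75.8% of the adipose bases and 56.9% of the muscle bases, against 73.1% and 42.0% over all chromosomes.

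**Figure D4:**
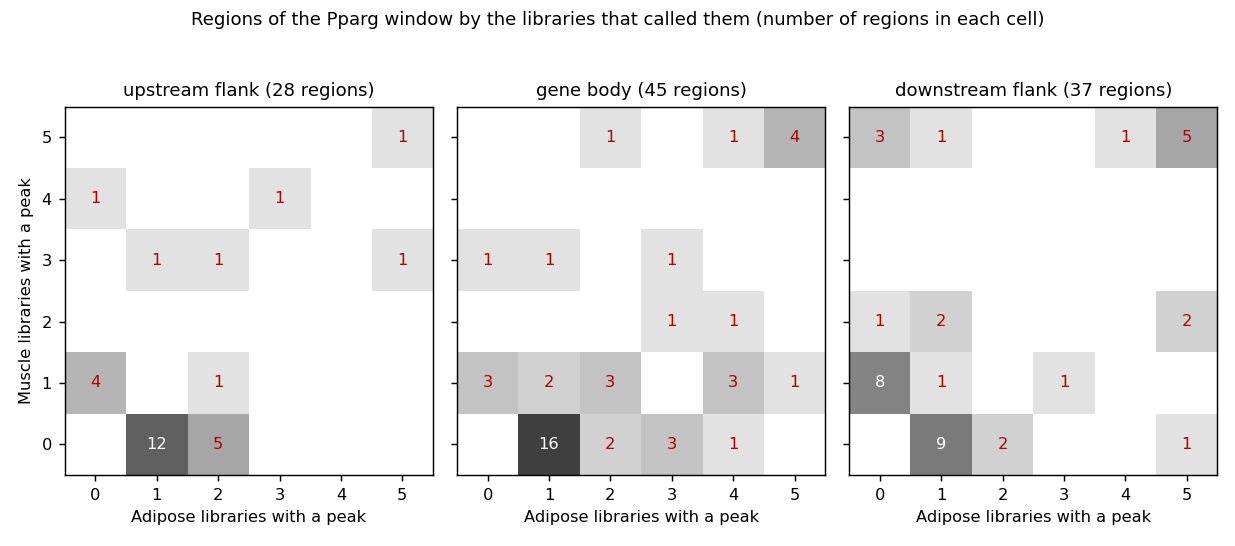
Regions of the upstream flank (28), the gene body (45) and the downstream flank (37) by the number of adipose libraries (horizontal) and muscle libraries (vertical) with a peak; the number in a cell is its number of regions. In the gene body 4 regions sit at 5 and 5, and none sits at 5 and 0 or at 0 and 5; in the downstream flank 3 sit at 0 adipose and 5 muscle libraries.

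The gene start carried the widest region of the window. It spans 147273800 to 147275586 (1787 bp) and begins at -0.200 kb from the gene start. Its fold enrichment, the authors' value at the strongest summit over the caller's background, was 5.59, 9.10, 9.73, 9.58 and 8.08 in adipose replicates 1 to 5 and 11.9, 10.9, 11.8, 14.9 and 14.6 in muscle replicates 1 to 5. All 10 values were strong. The folds of different libraries rest on different backgrounds and are set side by side without a test. Within their own lists the adipose peaks ranked at percentiles 93.3 to 97.2 by fold enrichment and the muscle peaks at 90.9 to 95.9, and percentiles of lists of different length are not compared between tissues. The strongest summit lay 51 to 92 bases after the gene start in 9 libraries, and 1325 bases after it in adipose replicate 2. Peaks covered 1553 bases of the region on average in adipose and 1556 in muscle.

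3 further regions inside the gene were called in all 10 libraries. The region at 147371785 to 147372756, centred 98.3 kb after the gene start, had the highest fold enrichment of them in adipose, at 8.23, 6.85, 8.68, 9.88 and 11.2, and in muscle it had 11.7, 6.17, 8.62, 8.39 and 16.1. Its adipose peaks ranked at percentiles 93.2 to 97.8 of their lists, beside those of the gene start. The region at 147335185 to 147335946, centred 61.6 kb after the gene start, averaged 5.57 ± 0.604 in adipose and 7.11 ± 2.16 in muscle (SD, n = 5 per tissue). The region at 147389076 to 147390114, centred 115.6 kb after the gene start, averaged 4.57 ± 0.673 in adipose and 4.26 ± 0.773 in muscle. It was strong in all adipose libraries and in 4 of 5 muscle libraries, with a −log10 q of 3.98 in muscle replicate 2.

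The other 6 regions open in all 10 libraries lay in the flanks. The highest of the whole window by mean, in both tissues, was at 147454932 to 147455972 in the downstream flank, where the fold enrichment averaged 20.3 ± 2.63 in muscle and 11.2 ± 1.21 in adipose (SD, n = 5 per tissue), and it ranked at percentiles of at least 96.9 in each list. Next to it lay 147447805 to 147448819, with 9.04 ± 1.43 in adipose and 13.4 ± 2.54 in muscle. In adipose replicate 3 this neighbour, at 10.5, and the gene start, at 9.73, were higher than the 9.72 of 147454932 to 147455972. In the upstream flank the only one was 147180679 to 147181482, with 5.86 ± 0.522 in adipose and 14.7 ± 1.47 in muscle. The remaining 3, at 147401525 to 147402539 (the region nearest to the gene end, 2.1 kb beyond it), 147406728 to 147407691 and 147428470 to 147429214, averaged between 4.19 and 4.82 in adipose and between 5.35 and 6.99 in muscle. The 10 shared regions were wide, with a median of 993.5 bp against 244 bp for regions outside the shared and exclusive classes. A region built from more peaks grows by merging, and the part of this in the widths was not tested. The median summits of adipose and muscle lay 2 to 46 bases apart in the 10. Single libraries could lie further off: in the region at 115.6 kb the strongest summit of muscle replicates 1 and 3 lay at 115945 and 115961 bases from the gene start, against 115508 to 115523 in the other libraries, and in the region at 154.8 kb those of adipose replicate 2 and muscle replicate 1 lay at 154920 and 154909, against 154667 to 154758.

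**Figure D5:**
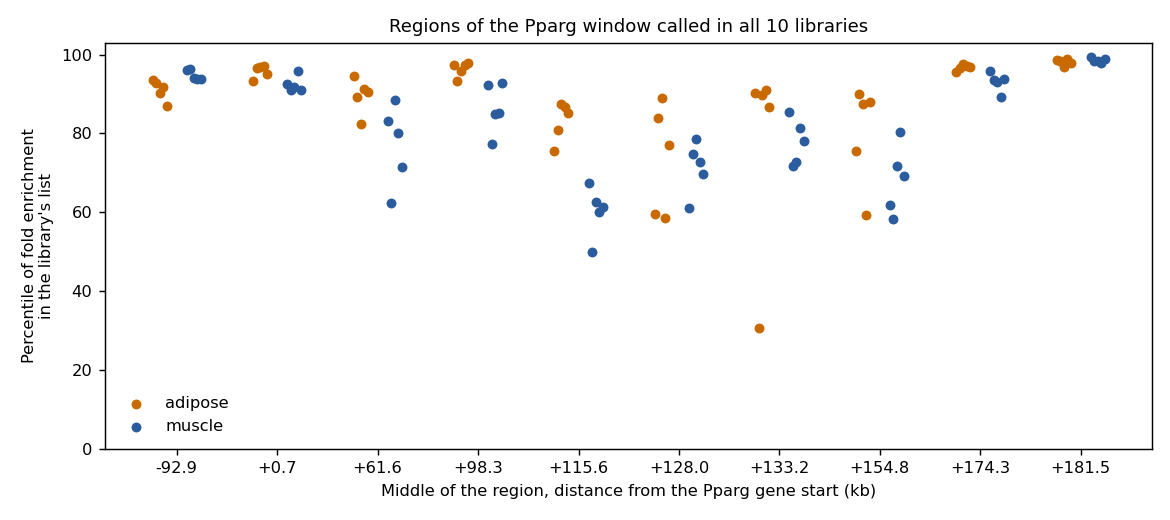
Rank of the 10 regions open in all libraries, as the percentile of fold enrichment within each library's list, by distance of the region's middle from the gene start in kb; points are libraries. The regions at +0.7, +174.3 and +181.5 kb rank at 89.2 or above in all 10 lists, and the region at +115.6 kb lies between 75.7 and 87.4 in adipose lists and between 49.9 and 67.4 in muscle lists, which differ in length.

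Regions found in one tissue and nearly absent from the other fell in different places. By a rule chosen after the values were seen, at least 4 libraries of a tissue and at most 1 of the other, 6 regions leaned to adipose and 5 to muscle, 10.3% and 8.62% of the 58 against 7.30% and 11.2% over the genome. Of the 6 that leaned to adipose, 5 lay inside the gene and 1 in the downstream flank. Of the 5 that leaned to muscle, none lay inside the gene, 1 in the upstream flank and 4 in the downstream flank. The split by position is a description and was not tested. Strong peaks did not repeat it for adipose: the same rule gave 2 regions, 1 inside the gene and 1 in the upstream flank. Neither is among the 6.

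Inside the gene, 2 regions tied as the most unevenly called. One was at 147332722 to 147333264, centred 59.0 kb after the gene start and 1.92 kb before the edge of the shared region at 61.6 kb. All 5 adipose libraries and 1 muscle library, replicate 5, had a peak there (Fisher's exact p = 0.0476, adjusted p = 0.289). The adipose fold enrichment was 2.99, 4.46, 4.13, 2.91 and 3.94, strong in replicates 2, 3 and 5, and the muscle value was 2.51 and not strong. At the common floor the muscle peak dropped out and the region was adipose-exclusive. Its adipose summits lay within 58833 to 58888 bases of the gene start and the muscle summit at 58865. The other, at 147394614 to 147395269, was called in 4 adipose libraries and no muscle library (Fisher's exact p = 0.0476, adjusted p = 0.289). Those at 147296608 to 147297281, 147307868 to 147308378 and 147393773 to 147394280 were each called in 4 adipose libraries and 1 muscle library (Fisher's exact p = 0.206, adjusted p = 0.646). None of these 3 was strong in more than 2 libraries.

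The adipose-exclusive region was at 147443940 to 147444315 in the downstream flank, with a fold enrichment of 3.40, 4.52, 2.54, 3.83 and 3.01 in replicates 1 to 5 (Fisher's exact p = 0.00794, adjusted p = 0.107). It was weak: replicates 2 and 4 were strong, and in replicate 3 it ranked at percentile 8.32 of the list. Among strong peaks the window had no adipose-exclusive region, against 1.44% of 141646 regions over the genome.

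At the far end of the window lay 2 regions that were strong in all 5 muscle lists and not in any adipose list. The region at 147484914 to 147485577, centred 211.2 kb after the gene start and 85.5 kb beyond the gene end, had a fold enrichment of 10.2, 8.29, 6.36, 6.60 and 9.12 in muscle replicates 1 to 5 and no peak in any adipose library. All 5 muscle values were strong, with a −log10 q between 26.2 and 66.1. The region at 147495633 to 147496548, centred 222.1 kb after the gene start, had 6.43, 4.42, 4.31, 4.04 and 3.67 in muscle and was strong in all 5. Adipose replicate 4 had a weak peak in it, with a fold enrichment of 2.79 and a −log10 q of 3.08. Among strong regions both were muscle-exclusive and passed Fisher's exact test (p = 0.00794, adjusted p = 0.0483). They were 2 of 29 strong regions tested in the window, 6.90%, where 15.0% of strong regions over the genome passed towards muscle, a share below that background. The adjusted p lies close to 0.05 and is the same for every such region, so a pass only restates that a region is exclusive. With adipose replicates 1 and 5 alone no Fisher's exact p can fall under 0.0476, so that setting says nothing about them. The other muscle-exclusive regions, at 147469896 to 147470626 and 147477758 to 147478088, averaged 3.24 ± 0.737 and 2.87 ± 0.622 (SD, n = 5 per tissue) and were strong in 1 muscle library each. The muscle-leaning region of the upstream flank, at 147203969 to 147204199, was called in 4 muscle libraries and strong in none.

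Among strong peaks, too, shared regions outnumbered exclusive ones in the window, as they did over the genome. Of 29 strong regions tested in the window, 8 were called in all 10 libraries (27.6%, genome 17.2%). Muscle-exclusive regions numbered 2 (6.90%, genome 15.0%) and adipose-exclusive regions 0 (genome 1.44%). In the gene body 3 of 13 strong regions were shared and none was exclusive, and no share over other gene bodies is given. Inside the gene, 3 strong regions, named after their values were seen, had 3 more adipose than muscle libraries: 147363224 to 147363649 with 4 against 1 (Fisher's exact p = 0.206, adjusted p = 0.506), and those starting at 147288322 and 147332722 with 3 against 0 (Fisher's exact p = 0.167, adjusted p = 0.429). Their deposited peaks came from 4 adipose and 2 muscle libraries at 147363224, 3 and 3 at 147288322, and 5 and 1 at 147332722. At an unadjusted Fisher's exact p under 0.05 there were 0 strong regions towards adipose and 2 towards muscle, against 4.36% and 22.4% over the genome. By the looser rule of at least 4 libraries against at most 1, there were 2 each way, 6.90%, against 5.30% towards adipose and 23.4% towards muscle. Towards adipose these were 147363224 to 147363649 and, in the upstream flank, 147243807 to 147244490, also 4 against 1 (Fisher's exact p = 0.206, adjusted p = 0.506). The upstream region was named after its values were seen, and its deposited peaks came from 5 adipose and 3 muscle libraries. Towards muscle both lay in the downstream flank.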

How the data were processed

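ATAC-seq open chromatin was compared between adipose (5 libraries) and muscle (5 libraries). The labels' protocols give about 75000 nuclei for each library. Per the submitters' processing notes, the build was rn6 and MACS2, Bowtie2, Picard, Trimmomatic and FastQC were used; versions and settings, read shifting and duplicate removal are not given in the sources used here. Peaks were deposited as 1 list per library. Each deposited row has a score (in 99.998% of rows the −log10 p times 10, without its decimals), a fold enrichment, and the −log10 p and −log10 q as p-value and q-value of the peak, all by the authors.

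Rows sharing an interval were counted as 1 peak with their highest fold enrichment and −log10 q. Peaks in the window and its parts were tested between tissues by exact permutation (two-sided, difference of means), Benjamini-Hochberg adjusted over 6 measures; a peak touching the gene body counted there only. Regions were merged over the libraries and tested with Fisher's exact test, adjusted over all regions called in at least 2 libraries. Windows with a mean of at least 1 peak were fitted with limma (lmFit, eBayes with trend). Named regions are those exclusive to a tissue in the deposited or strong lists, those called in all 10 libraries, and those nearest the gene ends; any other is said to be chosen after seeing values. The window, the measures and these rules were chosen with earlier results of these data known. The code was tested on simulated data. The titles give rat numbers 1 to 5 for either tissue. Python 3.11.15, NumPy 2.4.6, SciPy 1.17.1, pandas 2.3.3, matplotlib 3.10.9, R 4.3.3 and limma 3.58.1 were used. Other genes and marker lists need an rn6 annotation and were not analysed here.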

Additional observations from a re-analysis of the deposited data

Results flagged for a closer look

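In 52 sets of 5 values of the Pparg window, the gap from an extreme library to the next was set against the range of its tissue, and exceeded 0.71 of it in 2 sets; chance alone gives about 1 set in 20. Muscle replicate 5 covered 11.195 kb of the window with strong peaks, the most in muscle. Adipose replicate 4 had 15 peaks in the gene body, the fewest in adipose.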

How the results depend on the processing

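Differences are adipose minus muscle. On strong peaks the differences lost their calls, at 2.40 peaks and 1.41 kb for the window, 3 peaks and 1.32 kb for the gene body and 0.6 peaks for the upstream flank. Per 100000 peaks or per Mb of peaks they were -2.35 peaks and 0.0137 kb for the window, 1.09 peaks and 0.0228 kb for the gene body, 0.117 peaks for the upstream flank and -3.56 for the downstream flank, the only one called there. The upstream flank differed by 0.6 peaks among the 50000 strongest, and the downstream flank by 1.20 there and by 0.4 at the common −log10 p floor of 4.27, against -2.20 in the deposited lists. With adipose replicates 1 and 5 alone, where no p can fall under 0.0952, the differences were 8.70 peaks and 2.44 kb for the window, 8 peaks and 2.77 kb for the gene body and 3.10 peaks for the upstream flank. Among strong peaks of those libraries, a setting chosen after seeing the data, they were -1.50 peaks, -0.848 kb, 2.60 peaks, 1.06 kb and 0. Leaving out 1 library gave 6.50 to 9.95 peaks for the window, 2.75 to 4.15 kb covered, 6.80 to 9 peaks for the gene body and 2.25 to 2.85 for the upstream flank; only the peak number of the window lost its call.

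In limma the log2 difference of the window, -0.19, was 0.47 on strong peaks, 0.082 at the common floor, 0.32 without scaling (adjusted p = 0.0232) and 0.10 for kb covered; chosen after seeing the data, it was 0.42 on strong peaks with adipose replicates 1 and 5 and 0.16 on strong peaks without scaling. Without single libraries it ranged from -0.24 to -0.12. The cause of these turns was not tested. Windows called towards muscle numbered 2785, and 1414 without scaling.

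Adipose-exclusive regions numbered 0 on strong peaks, also with adipose replicates 1 and 5 alone, 3 at the common floor, 0 with a peak over at least 50% of the region, and 1 to 2 without single libraries (2 without adipose replicate 1 or muscle replicate 5). Muscle-exclusive regions numbered 1 at the common floor and 1 with 50% cover, and shared regions 5 with 50% cover. With adipose replicates 1 and 5 alone, muscle-exclusive regions numbered 4. No genome share is given for 50% cover, single libraries left out or adipose replicates 1 and 5. These counts only describe the window. Regions past Fisher's adjusted threshold numbered 2 on strong peaks and 0 in the deposited lists, where no region could pass.

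With libraries blocked by rat number (exact sign-flip test over 5 pairs, whose smallest p is 0.0625), the differences were the same by construction, 8.20 peaks and 3.59 kb for the window, 7.80 peaks and 2.90 kb for the gene body and 2.60 peaks upstream, and none reached an exact p under 0.05. The block in limma left the window at -0.19 (adjusted p = 0.150). Same-numbered libraries deviated together with a correlation over windows of -0.216 to 0.0932, and 1 of 5 adipose libraries correlated best with its own number. This cannot show whether same-numbered libraries share a rat, because technical variation of each library could hide it. The main tests do not treat the numbers as pairs. Read depth is unknown, so a missing peak means none was listed, not that the site is closed.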

Other observations

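Of the peaks in the Pparg window, the gene body took 46.5%, 53.7%, 46.8%, 44.1% and 50% in adipose replicates 1 to 5 and 42.4%, 30.8%, 35.9%, 37.5% and 35.3% in muscle replicates 1 to 5. The tissues did not overlap in it, at 48.2 ± 3.69% and 36.4 ± 4.2% (SD, n = 5 per tissue). The measure was chosen after its values were seen and is given without a test. The share of other genes whose tissues separate in it was not counted.

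Of the 110 regions of the window, 52 (47.3%) were called in 1 library, 37 of them in adipose and 15 in muscle, against 58.1% of all regions. Of the regions with an adipose peak, 15 of 89 in the window (16.9%) were called in all 5 adipose libraries, against 9.02% over the genome, and of those with a muscle peak 17 of 59 (28.8%) in all 5 muscle libraries, against 29.9%. Strong peaks were 47.5 ± 11.4% of the adipose peaks in the window and 32.5 ± 7.12% of those in the whole lists, higher in the window in 5 of 5 libraries. In muscle they were 52.2 ± 7.57% and 57.2 ± 6.92%, higher in the window in 1 of 5. These shares are descriptions, and their difference from the genome was not tested.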
